A study of Mus musculus with 2 samples.

Results

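ERK feedback inhibitors and ETV factors are genes that lie downstream of fibroblast growth factor (FGF) signaling, and 10 of them were described: the Sprouty genes Spry1, Spry2 and Spry4, the Sprouty-related genes Spred1 and Spred2, the phosphatase genes Dusp4, Dusp5 and Dusp6, and the transcription factor genes Etv4 and Etv5. They were selected by gene symbol, with earlier results of these data known, and all 10 were among the 14398 genes listed in the deposited table. Both libraries were made from 46C, an embryonic stem cell line of the mouse with a GFP reporter in the Sox1 locus, with cells at passages 21 to 24, grown on gelatin in serum medium with LIF, a cytokine that sustains self-renewal. The control cells had been transfected with the empty PB vector, and the ID2 cells overexpressed ID2 after transfection with PB-ID2; whether either culture was a clone or a pool is not given in the sources used here. Each group had 1 library. The values therefore carry no error and no difference was tested: "higher" and "lower" compare these 2 libraries.

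FGF receptors signal through RAS, RAF and MEK to the kinase ERK, which activates transcription. Among its outputs are genes that restrain the pathway. Sprouty and SPRED proteins act on receptors, RAS and RAF, and the dual-specificity phosphatases DUSP4, DUSP5 and DUSP6 remove phosphate from ERK. ETV4 and ETV5 are ETS-domain activators of the PEA3 group that are induced by FGF, and Capicua (Cic) is a repressor that ERK signaling relieves. In mouse embryonic stem cells, autocrine FGF4 is the main input to this pathway, and ERK activity prepares the cells for differentiation. ID2 is a helix-loop-helix protein that binds E proteins and keeps them off E-boxes.

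Values below are the authors' normalized values, and ratios are on the scale log2(value + 1), ID2 over control. Id2 itself stood at 324 in the control and 26225 with ID2. Each value was a whole number of steps (1 step was 0.995 in the control and 1.005 with ID2, within 2.59e-05 of a step), and the sorted whole numbers of both libraries were identical. Values are thus ranks placed on a shared distribution, and the sequencing depth behind them is unknown. A floor of 50 on the mean of both values left 12679 genes, the 10 members among them.

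Of the 10 members, 8 stood higher in the ID2 library and 2 lower, with a median log2 ratio of 0.64, while the median over all genes above the floor was -0.0023. Higher values by any amount were found for 47.2% of all genes above the floor and lower values for 51.5%. At least 2-fold higher were 3 members (Spry4, Dusp6 and Dusp5), beside 2.53% of all genes, and 0 members were at least 2-fold lower, beside 1.86%. At least 1.5-fold higher were 6 members, beside 8.00% of all genes, and 1 member (Dusp4) was at least 1.5-fold lower, beside 6.59%. The members were picked knowing this contrast, so these counts describe the group and are no test of it. The same holds for the place of each member among genes at its level, given below. Values ran from 55.7 for Dusp5 in the control to 8998 for Etv5 in the ID2 library.

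**Figure D1:**
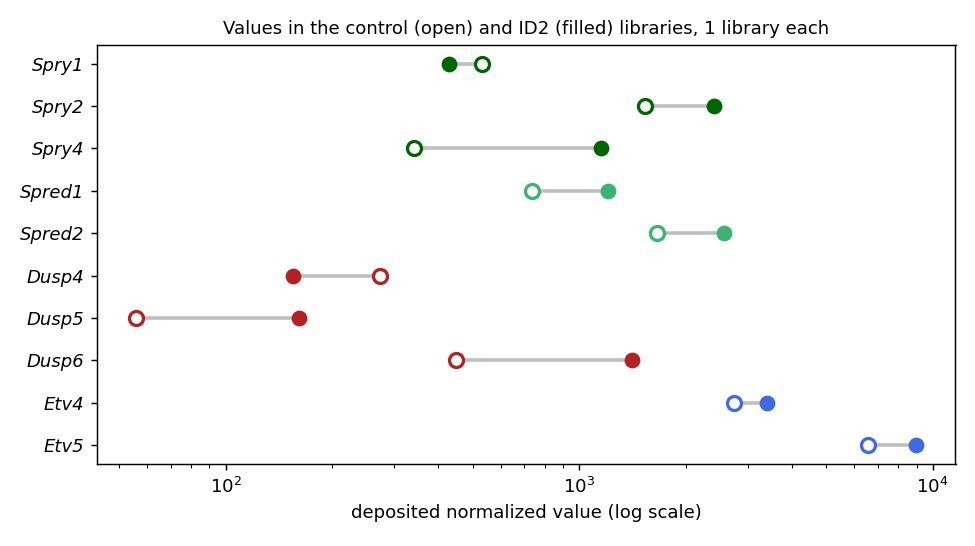
Deposited normalized value of each member (log axis) in the control library (open circles) and the ID2 library (filled circles), 1 library each and no error bars. The filled circle lies to the right for 8 genes and to the left for Spry1 and Dusp4; the longest lines belong to Spry4, Dusp6 and Dusp5.

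Sprouty genes differed in direction. Spry4, an inhibitor of receptor tyrosine kinase signaling, stood at 340 in the control and 1152 with ID2, which is 3.38-fold higher (log2 ratio 1.76). Its rank among the 14398 genes went from 8828 to 4971. Of 4594 genes whose mean lay within 2-fold of that of Spry4, 4 had a ratio as high, Spry4 included. The central 90% of those genes had log2 ratios between -0.55 and 0.62, and Spry4 lay outside this range, which is a spread over genes and not over replicates.

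Spry2, a Sprouty protein that binds the adaptor GRB2 and the ubiquitin ligase CBL, stood at 1533 and 2409, 1.57-fold higher (log2 ratio 0.65). Its rank went from 3924 to 2505, and 2.30% of the 4126 genes within 2-fold of its level had a ratio as high. Spry1 went the other way: it stood at 532 in the control and 427 with ID2 (log2 ratio -0.32), and 18.0% of the 4076 genes within 2-fold of its level had a ratio as low. The difference for Spry1 was thus within the spread of genes at its level, while Spry2 lay beyond the 95th percentile of 0.50 at its level.

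Levels of different genes were set side by side after dividing by the length of the principal coding transcript. Per kb, Spry2 was the most abundant Sprouty transcript in both libraries, with 73.6% of the summed Sprouty value in the control and 74.4% with ID2. Spry4 held 7.17% and 15.6%, and Spry1 19.2% and 9.93%, so that Spry4 and Spry1 changed places in the order. The sum of the 3 genes was 998 per kb in the control and 1550 per kb with ID2, 1.55-fold higher. These shares depend on which transcripts the cells used, which the gene-level values do not show.

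**Figure D2:**
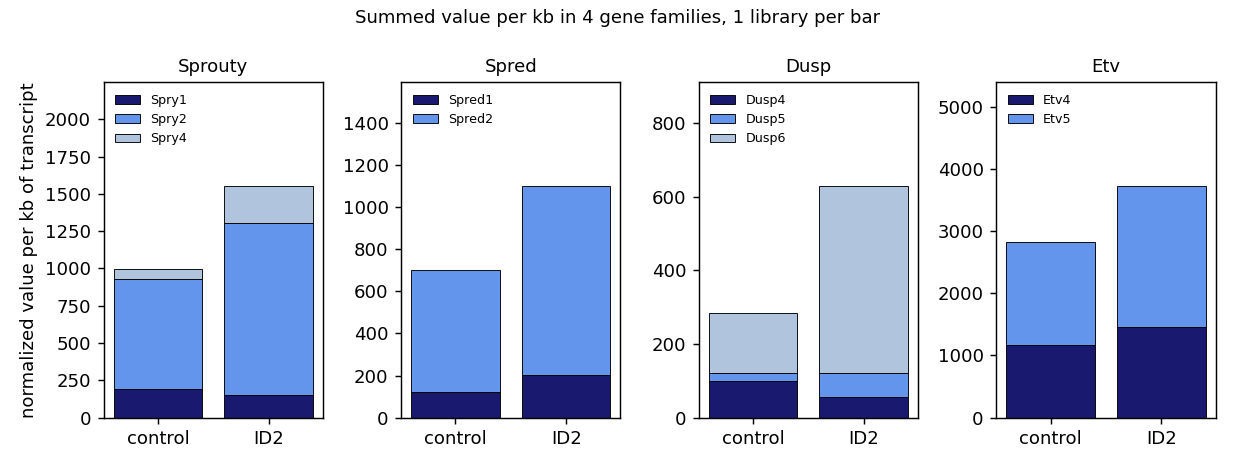
Deposited value divided by transcript length in kb, stacked by gene within each of the 4 families, for the control and ID2 libraries (1 library per bar, no error bars, linear axes starting at 0 with a different range in each panel). Spry4 widens from 7.17% to 15.6% of the Sprouty bar and Dusp6 from 56.9% to 80.6% of the phosphatase bar, while the Spred and Etv bars keep their proportions to within 3 percentage points.

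Both Spred genes stood higher by similar amounts. SPRED1 recruits the RAS GTPase-activating protein neurofibromin to the membrane; Spred1 stood at 737 in the control and 1207 with ID2 (1.64-fold, log2 ratio 0.71). Spred2, its close relative, stood at 1657 and 2560 (1.54-fold, log2 ratio 0.63). Of the genes within 2-fold of their levels, 2.83% of 4804 had a ratio as high as that of Spred1 and 2.41% of 3979 one as high as that of Spred2. Per kb, Spred2 made up 82.6% of the pair in the control and 81.7% with ID2, so their proportion was nearly the same in both libraries. Their sum was 1.56-fold higher in the ID2 library, close to the 1.55-fold of the Sprouty genes. Spred3, the third gene of the family and not a member of the group, stood at 161 and 340 (log2 ratio 1.07), and Spry3 had no row in the table.

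The 3 phosphatase genes spanned the widest range of ratios of the 4 families. Dusp6 encodes the cytoplasmic phosphatase that is selective for ERK. It stood at 450 in the control and 1415 with ID2, 3.14-fold higher (log2 ratio 1.65), with its rank going from 8086 to 4236. Of 4776 genes within 2-fold of its level, 4 had a ratio as high, Dusp6 included.

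Dusp5 encodes a nuclear, ERK-selective phosphatase. It stood at 55.7 and 161, 2.85-fold higher (log2 ratio 1.51). Its level was the lowest of the 10 members, where ratios of all genes spread most: the central 90% of 2626 genes at its level lay between -1.07 and 1.21, and 2.67% of them had a ratio as high. This share was near those of Spry2 and the Spred genes, although the fold of Dusp5 was near that of Dusp6.

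Dusp4 encodes a nuclear phosphatase that acts on ERK and other MAP kinases. It stood at 273 in the control and 155 with ID2, 1.76-fold lower (log2 ratio -0.81), and 5.24% of the 3017 genes at its level had a ratio as low. Per kb, Dusp4 stood at 99.5 against 22.5 for Dusp5 in the control, and at 56.5 against 65.0 in the ID2 library. The pair therefore stood far apart in the control and near each other in the ID2 library. Dusp6 held 56.9% of the summed value per kb of the 3 genes in the control and 80.6% with ID2, and Dusp4 35.2% and 9.00%. The sum was 2.22-fold higher in the ID2 library, at 283 and 628 per kb.

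Other MAP kinase phosphatases lay close to equality. Of 7 listed genes, 5 were in the table and 4 above the floor, with log2 ratios between -0.16 and 0.06 and a median of -0.03. Dusp9, an ERK-selective phosphatase related to Dusp6, stood at 6038 and 5892, and Dusp1, an immediate early phosphatase gene, at 701 and 687. Dusp7, a cytoplasmic ERK phosphatase gene, stood at 673 and 602 (log2 ratio -0.16), and Dusp16 at 1369 and 1427 (0.06). The phosphatase genes at least 2-fold apart in these lists were Dusp5 and Dusp6.

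Etv4 and Etv5 were the most abundant members and had the smallest positive ratios. Etv5 stood at 6572 in the control and 8998 with ID2 (1.37-fold, log2 ratio 0.45). It ranked 671st and 421st among the 14398 genes, and 4.65% of the 1226 genes at its level had a ratio as high. Etv4 stood at 2743 and 3394 (1.24-fold, log2 ratio 0.31), and 11.7% of 3203 genes at its level had a ratio as high. Per kb, Etv5 made up 58.5% of the pair in the control and 60.9% with ID2. Etv1, the third gene of the PEA3 group, is not a member and stood at 285 and 521 (log2 ratio 0.87).

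**Figure D3:**
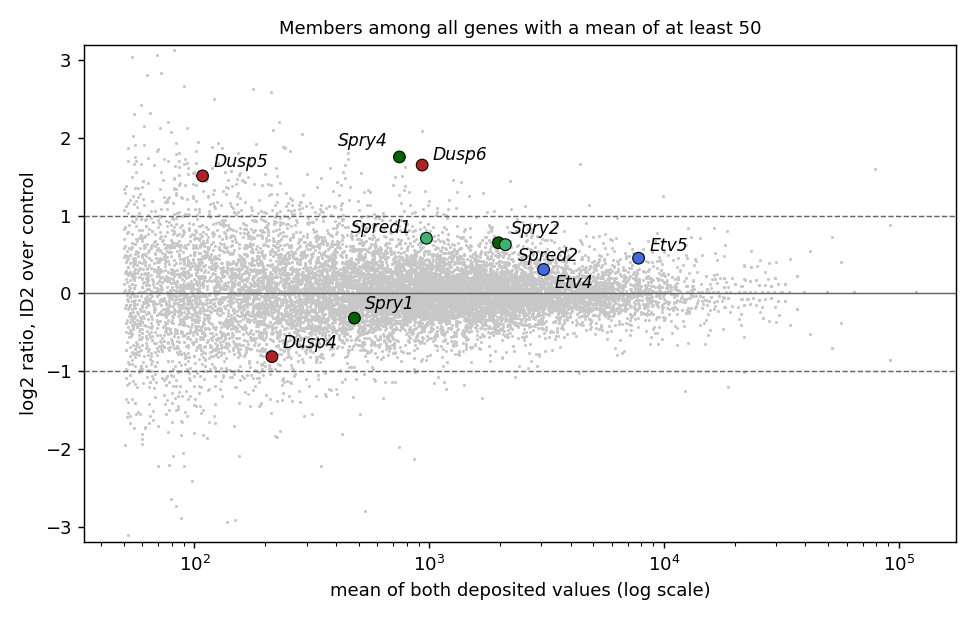
Log2 ratio of ID2 over control against the mean of both deposited values (log axis) for the genes with a mean of at least 50 (grey; 3 genes beyond 3.2 in either direction are not drawn), with the 10 members in colour (green Spry and Spred, red Dusp, blue Etv). Dashed lines mark 2-fold; the grey cloud is widest at low values, and Spry4 and Dusp6 lie at its upper margin while Spry1 lies inside it.

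Across all members, the order of the values per kb was led in both libraries by Etv5 (1653 and 2264), Etv4 (1174 and 1453), Spry2 (734 and 1154) and Spred2 (581 and 898). The lower 6 places were filled differently. In the control they ran Spry1 (192), Dusp6 (161), Spred1 (123), Dusp4 (99.5), Spry4 (71.6) and Dusp5 (22.5). In the ID2 library they ran Dusp6 (506), Spry4 (242), Spred1 (201), Spry1 (154), Dusp5 (65.0) and Dusp4 (56.5). With 1 library per group, no spread is at hand to say which neighbours in these orders differ.

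The authors' deposited table gives adjusted p-values under 0.05 to 2 members, Spry4 and Dusp6 (0.00671 each), beside 0.181% of all 14398 genes. The authors' deposited table gives 5 members an unadjusted p under 0.05, beside 3.85% of all genes: these are Spry4 (7.46e-06), Dusp6 (7.12e-06), Spry2 (0.0340), Spred2 (0.0391) and Spred1 (0.0461). For Dusp5, Etv5, Dusp4, Etv4 and Spry1 the authors' deposited table gives unadjusted p-values of 0.0645, 0.0893, 0.173, 0.286 and 0.469. These p-values rest on 1 library per group and hold no spread between replicates. The deposited values beside them are ranks placed on a shared distribution and not read counts.

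Genes whose pair of values was most like that of Spry4, the member with the largest ratio, were found by the distance in log2 mean level and log2 ratio, over the 2 libraries. They were Zdbf2 (384 and 1186, distance 0.15), Zfp808 (395 and 1131, distance 0.24) and Klhdc7a (372 and 1052, distance 0.27). With a pair of libraries, this likeness says only that both values are near each other.

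Upstream components of the pathway had list medians at or below 0. Of 9 FGF ligand genes, 7 were above the floor, 2 of them higher and 5 lower (median log2 ratio -0.21, range -0.81 to 0.81), and 0 were at least 2-fold apart in either direction. Fgf8 (83.6 and 47.2) and Fgf10 (47.8 and 84.4) were the farthest apart, both at low values. Fgf4, the autocrine ligand, was chosen after its values were seen and stood at 8157 and 6932 (log2 ratio -0.23). Of 10 receptor genes past the floor, 4 were higher and 6 lower (median -0.02), and Fgfr3 was at least 2-fold lower (251 and 106, log2 ratio -1.24). Fgfr4 stood at 561 and 350 (-0.68).

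Of 13 genes of adaptors, exchange factors and RAS, 6 were higher and 7 lower (median -0.09, range -0.36 to 0.75). Mras, a RAS-related GTPase that activates RAF with SHOC2, had the largest ratio of them, at 2044 and 3437 (0.75). Among 10 genes of RAF, MEK, ERK and their scaffolds, 4 were higher and 6 lower (median -0.05, range -0.22 to 0.54). The scaffold gene Ksr1 stood at 472 and 685 (0.54), and Mapk3, which encodes ERK1, at 5028 and 4322 (-0.22). In both lists 0 genes were at least 2-fold apart.

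Other negative regulators of RAS and ERK were evenly divided, with 6 of 12 higher and 6 lower (median 0.03). Spred3 was the 1 gene of this list at least 2-fold higher. Lrig1, which promotes receptor degradation, stood at 567 and 334 (-0.76), and Errfi1, an inhibitor of the EGF receptor, at 787 and 531 (-0.57).

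Other ETS factor genes with Capicua and its partners stood higher in 11 of 14 cases (median 0.32, range -0.15 to 0.95), beside 47.2% of all genes above the floor. Elk3, a ternary complex factor that ERK phosphorylates, stood at 289 and 559.7 (0.95), Etv6, an ETS repressor, at 322 and 583 (0.85), and Ets2, an ETS activator, at 818 and 1166 (0.51). Cic, chosen after its values were seen, stood at 7185 and 6495 (-0.15). The list held 0 genes at least 2-fold apart.

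Immediate early genes went both ways. Of 11 above the floor, 5 were higher and 6 lower (median -0.01), of which 2 were at least 2-fold higher and 2 lower by as much. Myc stood at 80.6 and 349.7 (2.10) and Egr1, a zinc finger factor induced by ERK through serum response factor, at 162 and 357 (1.13). Ier5 stood at 145 and 56.3 (-1.35) and Fos at 215 and 102 (-1.06). Of 10 further transcriptional outputs of ERK, 6 were higher and 4 lower (median 0.26, range -0.66 to 0.71). Hmga2 stood at 355 and 579.8 (0.71), Emp1 at 1507 and 2428 (0.69), Epha2, an ephrin receptor gene, at 2140 and 3352 (0.65), and Spsb1 at 1298 and 821 (-0.66).

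Over all 9 lists, 91 of 110 listed genes passed the floor, 45 of them higher and 46 lower, with 3 genes past 2-fold in each direction and a median of -0.0074. These lists hold none of the 10 members, and they were chosen with earlier results known.

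**Figure D4:**
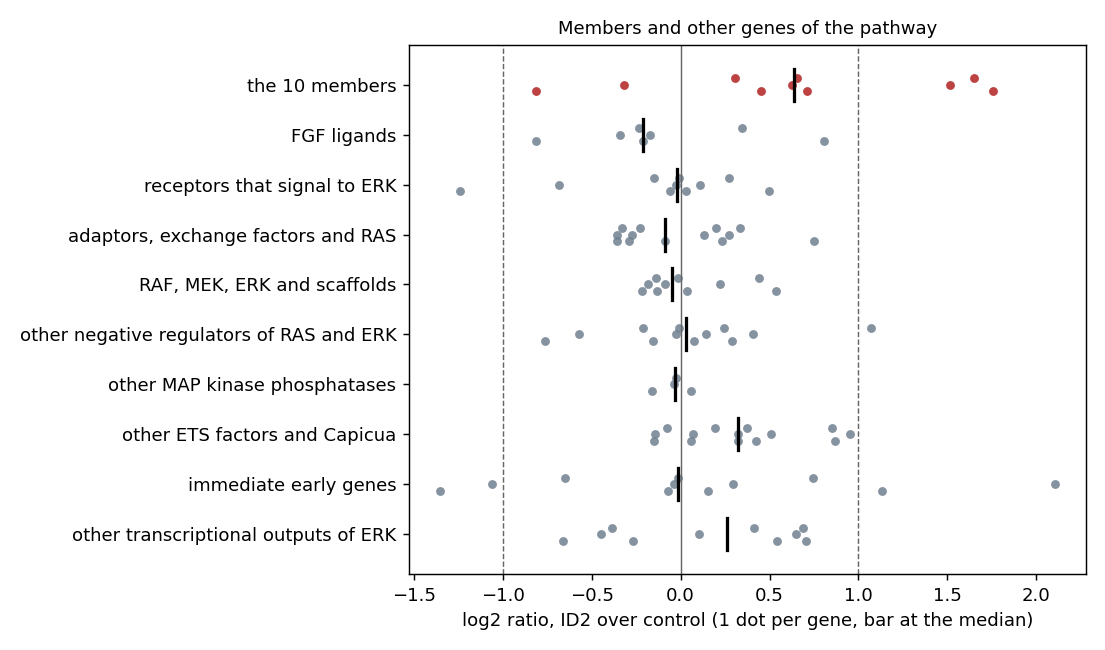
Log2 ratio of ID2 over control for the 10 members (red) and for genes above the floor in 9 lists of the same pathway (blue), 1 dot per gene, with a black bar at each median and dashed lines at 2-fold. The median of the members is 0.64, and those of the 9 lists lie between -0.21 and 0.32.

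Promoter sequence was not read when the genes were chosen. They were, however, selected as genes downstream of FGF signaling, and motifs such as the Capicua site belong to factors of that pathway. Matches are therefore no independent evidence about the group. The RefSeq promoter table (build GRCm38.p6) holds windows from 250 bases before to 50 bases after the annotated gene start, and 7 of the 10 members matched it with 8 windows, 2 of them for Etv5; Spry4, Dusp4 and Etv4 did not match. On both strands, windows were searched for the E-box CANNTG, which E proteins bind, the ETS site CCGGAAG and the AP-1 site TGANTCA. The Capicua sites TGAATGA and TGAATGG and the CArG box of serum response factor were also searched. A Capicua site here means a match to either string of 7 bases, and longer forms of the site were not searched. Capicua sites were found in 3 of the 8 windows, those of Dusp5, Dusp6 and the downstream start of Etv5, beside 7.10% of all 32851 windows. These 3 stretches are shown because they hold every Capicua site and CArG box found in the members' windows. Each is printed 5′ to 3′ on the strand of the gene, with those matches in capitals.
Etv5, chr16:22438452-22438618, minus strand: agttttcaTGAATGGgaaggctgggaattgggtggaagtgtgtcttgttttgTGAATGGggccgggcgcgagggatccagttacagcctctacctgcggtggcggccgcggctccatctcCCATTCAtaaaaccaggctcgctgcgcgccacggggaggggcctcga
Dusp6, chr10:99263058-99263144, plus strand: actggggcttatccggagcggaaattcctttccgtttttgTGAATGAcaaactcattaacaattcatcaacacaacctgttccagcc
Dusp5, chr19:53529023-53529113, plus strand: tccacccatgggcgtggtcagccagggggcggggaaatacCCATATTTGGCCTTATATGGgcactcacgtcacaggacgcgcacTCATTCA

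The Etv5 window held 3 Capicua sites, which begin 242, 198 and 130 bases before the downstream start, and the last of them reads on the opposite strand. Windows with 3 or more such sites made up 0.0883% of all windows. The single site of Dusp6 begins 133 bases before the start. The site of Dusp5 begins 38 bases before the start, on the opposite strand. Of the 250 bases before this start, 36 lie in annotated exons of Dusp5 itself, against 0 for Dusp6 and the downstream start of Etv5. They include the bases directly after the Capicua site of Dusp5, so that site may lie partly in an exon. Upstream of its Capicua site, the Dusp5 window held 2 adjoining CArG boxes, which begin 82 and 72 bases before the start. A CArG box stood in 1.63% of all windows, and 2 or more in 0.0183%. The motifs did not overlap one another in these windows.

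E-boxes were found in 4 of the 8 windows, beside 72.3% of all windows: 2 matches for Spry1, 1 for Spry2, 1 for Dusp6 and 2 at the upstream start of Etv5. The ETS site, present in 8.86% of all windows, and the AP-1 site, present in 7.81%, had 0 matches in the 8 windows. The windows of Spred1 and Spred2 held none of the motifs searched. Among the genes with a Capicua site, the log2 ratios of 1.65 for Dusp6, 1.51 for Dusp5 and 0.45 for Etv5 stood beside 0.65 for Spry2, 0.71 for Spred1, 0.63 for Spred2 and -0.32 for Spry1, whose windows held none. Spry4 (1.76), Dusp4 (-0.81) and Etv4 (0.31) had no window and stand in neither group. Whether the motifs bear on the ratios was not tested. A match is a description of letters in these windows and says nothing of binding.

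**Figure D5:**
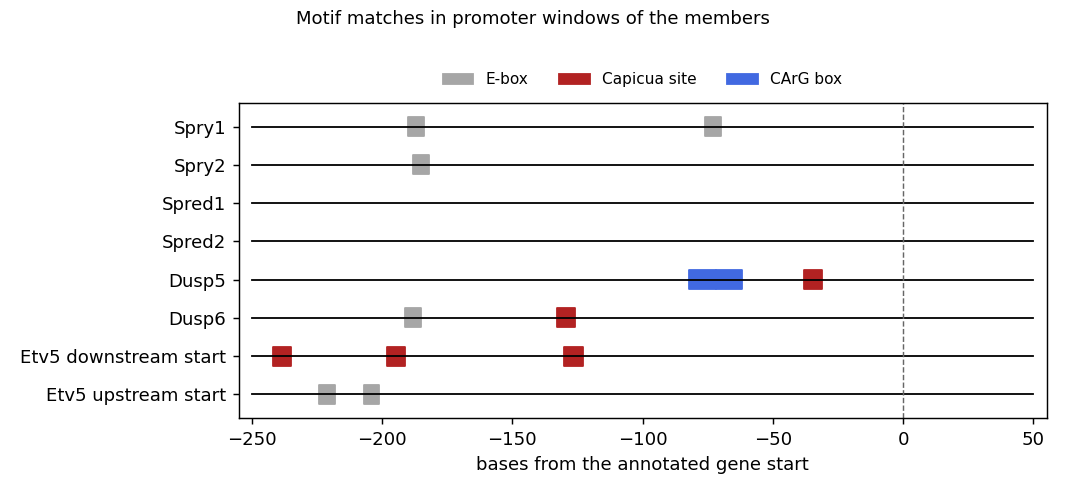
Positions of motif matches in the 8 promoter windows of 7 members, in bases from the annotated gene start (dashed line at 0), with E-boxes in grey, Capicua sites in red and CArG boxes in blue. Red marks appear for Dusp5, Dusp6 and the downstream start of Etv5, and the blue marks of Dusp5 are 2 adjoining boxes.

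Transcript structure moved with the ratios. Where a single exon made up 80% or more of a coding transcript, 7.10% of 1577 genes stood 2-fold or more higher and 1.59% as much lower in the ID2 library (median log2 ratio 0.12), while among 9931 other coding genes 1.57% were higher and 1.42% lower (median -0.0099). Spry4 (94.8% of the transcript in its largest exon), Spry2 (88.9%) and Spred1 (82.7%) belong to the first class. All 3 stood higher, as did 59.9% of the genes of that class by any amount. Of the other 7 members, 5 were higher and 2 lower, beside 45.8% higher and 52.8% lower among other coding genes. The median of these 7 members was 0.45. Dusp6 (53.5%) and Dusp5 (61.3%) are in this second class. The part of transcript structure in the result was not tested. The libraries do not keep the strand, and annotated exons of Gm42922 overlap those of Spry1 on the opposite strand, as those of AC137853.2 do for Dusp5; neither has a row in the table.

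Markers of embryonic stem cells were present in both libraries: all 10 listed genes were in the table, with a summed value of 132687 in the control and 150702 with ID2. They did not move together: 6 were higher, 3 lower and 1 equal (median log2 ratio 0.16). Zfp42 (9009 and 16218) and Esrrb (14946 and 20873) had the largest ratios, at 0.85 and 0.48. Of 10 markers of fibroblasts or feeder cells, 5 were in the table, with a summed value of 2143 in the control and 1350 with ID2. Thy1 (966 and 608) and Pdgfrb (768 and 589) made up most of the summed value. The 3 above the floor were lower in the ID2 library (median log2 ratio -0.67), beside 51.5% of all genes above the floor. Col1a1 was the farthest apart of the 3, at 339 in the control and 139 with ID2 (log2 ratio -1.28). Under the floor lay Tnc, at 28.9 in the control and 7.03 with ID2, and Col1a2, at 39.8 and 7.03. Col3a1, Postn, Lum, Dcn and Twist2 had no row. Of 8 markers of primitive endoderm, 6 were listed, with a summed value of 5894 and 6516 that was mostly Lama1 (5561 and 6130). Of the 5 above the floor, 4 were higher and 1 lower (median log2 ratio 0.14): Sox7 stood at 16.9 and 127 (2.83) and Gata4 at 146 and 76.4 (-0.93), while Sox17 and Foxa2 had no row. Of 7 neural markers, 5 were listed and above the floor, 2 higher and 3 lower (median -0.52), although their summed value was larger with ID2 (2155 and 2642); Sox1 stood at 386 and 782 (1.02) and Nes at 425 and 231 (-0.88). Of 7 trophectoderm markers, 5 were listed (summed value 4848 and 3400), and of the 4 above the floor 2 were higher and 2 lower (median -0.06). Most of that sum was Tfap2c, at 3697 and 2150 (-0.78). Cell makeup and RNA per cell cannot be told apart in such bulk samples, and the part of other cells in the members' values was not tested.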

How the data were processed

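RNA was sequenced from 1 control and 1 ID2 library. Trizol was used for extraction and a TruSeq RNA v2 kit, which keeps no strand, for the libraries, per the labels. STAR, DESeq and build mm9 are named in the submitters' processing notes, and neither their versions nor the annotation or counter is given in the sources used here. The authors deposited 1 normalized signal value per gene and library, their mean, the fold, its log2 and p-values, raw and adjusted. The deposited fold is the ratio of both values.

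Log2 ratios were computed with a pseudocount of 1 and a floor of 50 on the mean of both values, in Python 3.11.15 with pandas 2.3.3 and numpy 2.4.6. Counts of higher and lower genes used whole steps. No test was run, because each group has 1 library; depth is unknown. The script for ratios and folds was tested on simulated data. Transcript lengths and exons came from GENCODE M21 (GRCm38), using the principal, then longest, coding transcript. Named genes were the 10 members, Id2, up to 4 genes per list with the largest absolute ratio above the floor, and the 3 genes nearest to the member with the largest ratio. The members and lists were chosen with earlier results of these data known. Alternatives covered pseudocounts, scaling, floors, fold thresholds, the authors' log2 column and transcript structure.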

Additional observations from a re-analysis of the deposited data

How the results depend on the processing

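Of 77 recomputed values, 64 stayed within the tolerance (0.1 on the log2 scale, or 1.5 times for counts and shares), 13 moved and 0 reversed. Only a ratio of at least 2-fold could be called reversed. Counts, shares, the median and the smaller member ratios could therefore not get that label. Of 40 recomputed log2 ratios of members, 39 stayed within the tolerance. Dusp5, the lowest member, went from 1.51 to 1.38 with a pseudocount of 10. The authors' log2 column is the ratio of the same deposited values, so it could hardly differ. Rescaling could hardly move a value, since the median log2 ratio of all genes was -0.0023. With a fold threshold of 1.5, 6 members were higher and 1 lower, and all genes gave 8.00% and 6.59%; with a threshold of 3, 2 members were higher (Spry4 and Dusp6) and 0 lower, and all genes gave 0.607% and 0.363%. A floor of 250 also left 2 members at least 2-fold higher, since Dusp5 and Dusp4 fell under it. The shares of all genes past 2-fold were 3.83% (higher) and 3.26% (lower) without a floor, against 1.095% and 0.553% when the floor was 250. Where a single exon made up 80% or more of the transcript, 7.10% were higher. Both alternatives on the choice of members were added after seeing the data: without Spry4 and Dusp6 the median log2 ratio was 0.54, and over members with under 80% of the transcript in 1 exon it was 0.45. Without replicates, no alternative shows how far these values would vary between cultures. No paired analysis was possible because each group has 1 library.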
